A study of Mus musculus with 8 samples.

Results

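Loss of the chromatin remodeller Snf2h was described in the cerebellum of running mice by comparing Snf2h cKO-Nestin runners (2 libraries) with control runners (2 libraries). The members are the loci of the authors' comparison of these groups that reached an FPKM of 1 in either group, which kept 7522 of the 8105 loci listed there and of the 11763 loci listed in any comparison of the series. FPKM is the number of sequenced fragments of a locus divided by the length of its transcript and the size of the library, and the deposited tables give 1 such value for each group. The change of a locus is the log2 ratio of its cKO FPKM to its control FPKM, so a positive value means higher in the cKO. The series also holds cKO sedentary and control sedentary mice, with 2 libraries each, which serve here only to ask whether a genotype ratio in runners differed from that in sedentary mice. Every library is labelled as polyadenylated RNA from a pool of 3 cerebella of male C57Bl/6 mice at postnatal day 40. The cKO is a conditional deletion with a Nestin driver, and the running was voluntary, going by the title of the series. The labels say neither what alleles the controls carry nor how long the mice ran.

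Snf2h is the motor subunit of ISWI complexes, which slide and space nucleosomes, and its gene is Smarca5. Nestin marks neural progenitors, so a Nestin driver deletes in neurons, astrocytes and oligodendrocytes, while microglia, vessels and meninges come from other lineages and are expected to keep the gene. Granule neurons are the most numerous cells of the cerebellum, and their progenitors divide after birth. In whole cerebellum, fewer cells of a type and less RNA per cell cannot be told apart, and because FPKM is a share of each library, a loss of one abundant transcript class raises the share of all others.

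Smarca5 (minus strand of chromosome 8, 80698507 to 80739497, mm10) had 5.38 FPKM in cKO runners against 12.96 FPKM in control runners (log2 ratio -1.27, SE 0.14). The sex label did not match the values of sex-linked genes. Xist, the transcript of the inactive X chromosome and thus of female cells, had 25.8 FPKM in cKO runners, 57.6 in control runners, 18.1 in cKO sedentary mice and 34.8 in control sedentary mice. Eif2s3y, on the Y chromosome, had 5.56 FPKM in cKO runners, 0.0334 in control runners, 10.4 in cKO sedentary mice and 7.43 in control sedentary mice. All 4 groups thus carried Xist although all mice are labelled male, and control runners had nearly no Y-linked transcript. The Y-linked genes Ddx3y, Uty and Kdm5d had 5.90, 1.53 and 1.36 FPKM in cKO runners, and the tables used here list no control runner value for them. Sex of the pooled mice and genotype cannot be told apart in this comparison, and with 1 value per group no library can be left out. Of the called loci on the X chromosome, 41.8% of 237 were higher in the cKO, against 45.5% of 6300 called autosomal loci.

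Cell type markers also differed between the groups, and their part in the results below was not tested. Summed over the markers with both values, granule neuron markers (25 loci) had 1232 FPKM in cKO runners and 3083 FPKM in control runners. Hindbrain and midbrain neuron markers (18 loci) had 176 FPKM in cKO runners and 39.5 FPKM in control runners. The sums for microglia (17 loci) were 191 FPKM in cKO runners and 109.6 FPKM in control runners, and those for meninges (18 loci) 1395 FPKM in cKO runners and 847 FPKM in control runners. Choroid plexus (11 loci) had 1029 FPKM in cKO runners and 873 FPKM in control runners, and mature oligodendrocytes 3845 FPKM in cKO runners and 3571 FPKM in control runners. Cerebellar neuron and glial markers were thus present in both groups, and no marker of these 6 lists stood at 0 in either.

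The authors' test called nearly every kept locus, 7476 of 7522 (99.4%) at a deposited q below 0.05, since the authors' deposited table holds little else. Of the kept loci, 3320 were called higher in cKO runners (44.1%) and 4156 lower (55.3%). Most differences were small: the median called locus differed by 1.34-fold, and 604 loci were at least 2-fold higher (8.03%) and 273 at least 2-fold lower (3.63%). The median log2 ratio of all kept loci was -0.15. Centred on that median, 49.99% of called loci would count as higher instead of 44.4%, so lists of small ratios are read against it. Each call named below had the smallest q in the authors' deposited table, 0.000167, unless another is given. The SE beside a log2 ratio is the deposited ratio divided by the deposited statistic. With 1 value per group, no spread between libraries can be shown, and the error behind a call is the authors' own.

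Direction went with level. Among the 1675 loci whose higher group lay between 1 and 5 FPKM, 71.0% were called higher in the cKO and 420 were at least 2-fold higher. That share was 39.1% for 2783 loci between 5 and 20 FPKM, 32.7% for 2556 loci between 20 and 100 FPKM, and 40.7% for 508 loci at 100 FPKM or more. The large increases were therefore mostly of transcripts with little expression in the control. A locus near the threshold enters through its higher group. Just inside it were Csf3r, with 1.0 FPKM in cKO and 0.317 FPKM in control runners, and Nlrp10, with 0.494 FPKM in cKO and 1.0 FPKM in control runners. Just outside were Gm13399, with 0.994 FPKM in cKO and 0.622 FPKM in control runners, and Col17a1, with 0.644 FPKM in cKO and 0.993 FPKM in control runners.

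**Figure D1:**
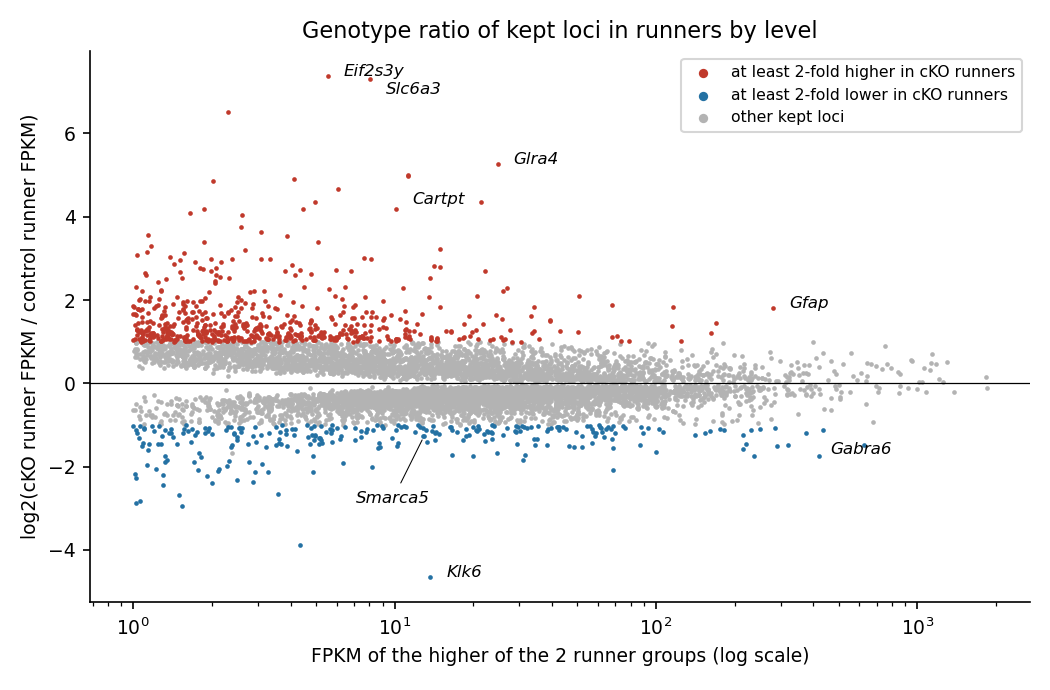
Each point is a kept locus with a value above 0 in both groups, plotted by the FPKM of the higher runner group (log scale) and by its log2 ratio of cKO runner to control runner. The 604 loci at least 2-fold higher include 420 below 5 FPKM, and the points narrow towards 0 at high FPKM; Klk6 lies lowest at -4.66 and Eif2s3y highest at 7.38.

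Genes of ISWI and other remodelling complexes were mostly lower in cKO runners. All 8 kept ISWI genes, of 13 on the list, were called lower, with a median log2 ratio of -0.34, and all 8 still counted as lower when centred. After Smarca5 itself came Baz2a, a subunit of the nucleolar remodelling complex, at 10.4 FPKM in cKO runners against 14.2 FPKM in control runners (log2 ratio -0.44, SE 0.07). Baz1b, the Williams syndrome transcription factor of the WICH complex, had 24.5 FPKM in cKO runners against 32.9 FPKM in control runners (log2 ratio -0.42, SE 0.04). Rbbp7, a histone-binding subunit shared with other complexes, had the smallest ratio of the list, -0.16. Of 19 kept genes of the BAF, CHD and INO80 remodellers, 17 were lower and 2 higher, where 55.3% of all kept loci were lower. Centred on the median of all kept loci, 14 counted as lower and 5 as higher. Dpf3, a BAF subunit, had 8.82 FPKM in cKO against 18.8 FPKM in control runners, a log2 ratio of -1.09, and Chd7, the CHARGE syndrome remodeller, 12.5 FPKM in cKO against 23.1 FPKM in control runners, a log2 ratio of -0.89. The neuronal remodeller gene Chd5 went the other way, with 9.02 FPKM in cKO against 5.48 FPKM in control runners, a log2 ratio of 0.72. Granule neuron markers, beside these lists, had a median log2 ratio of -1.12, with all 23 kept ones lower.

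Enzymes of histone and DNA methylation were mostly lower, while those of histone acetylation and deacetylation divided. Of 21 kept histone methylation and demethylation genes, 19 were lower, 1 was higher and 1 was not called, with a median of -0.27. When centred, 18 counted as lower and 2 as higher. Dot1l, the H3K79 methyltransferase, had 17.2 FPKM in cKO and 25.996 FPKM in control runners. Kdm2b, an H3K36 demethylase, had 7.48 FPKM in cKO and 11.7 FPKM in control runners. Ehmt2, an H3K9 methyltransferase, was the 1 higher, with 25.8 FPKM in cKO and 23.8 FPKM in control runners and q = 0.000475 in the authors' deposited table. All 6 kept DNA methylation genes were lower, and the 10 others of the 16 on the list were not in the runner comparison. Dnmt1, the maintenance methyltransferase, had 13.7 FPKM in cKO and 21.02 FPKM in control runners, a log2 ratio of -0.62, and Tet3, a methylcytosine dioxygenase, had 5.503 FPKM in cKO and 8.57 FPKM in control runners. Of 8 kept acetylation and deacetylation genes, 3 were higher and 5 lower, with a median of -0.23. Among 9 kept histone genes, 7 were lower and 2 higher, and H3f3b, a gene of the replacement histone H3.3, fell to 139 FPKM in cKO runners, against 233 FPKM in control runners.

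The Zfp series of zinc finger genes, many of which encode DNA-binding repressors, was the largest list by kept members, and most of them were lower. Of 181 kept members, 162 were lower and 17 higher, with a median log2 ratio of -0.46, and 160 still counted as lower when centred. Their levels were low, with a median of 6.95 FPKM in the higher group. Over all kept loci, weighted to the level classes of this list, 49.8% were called higher, so the series did not follow the trend of loci at its levels. Close relatives within the series can share reads, so single values are less certain than the count. The largest decreases were of Zfp677, with 0.536 FPKM in cKO against 1.29 FPKM in control runners, a log2 ratio of -1.27, and Zfp551, with 1.31 FPKM in cKO against 3.08 FPKM in control runners, a log2 ratio of -1.23. Zfp750 had the largest increase, 1.16 FPKM in cKO against 0.544 FPKM in control runners, a log2 ratio of 1.09. In sedentary mice 203 members were kept, 168 lower and 29 higher in the cKO, where 54.7% of all 9297 kept loci were lower and 43.1% higher.

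Splicing and translation genes listed in the runner comparison were also mostly lower, but it left out many members of these lists. Of 78 splicing factors 18 were not in the runner table, as were 17 of 46 translation factors, 36 of 48 mitochondrial and 50 of 74 cytosolic ribosomal proteins and 42 of 73 respiratory chain genes. Of 60 kept splicing factors, 55 were lower and 5 higher (median -0.29), and 47 counted as lower and 13 as higher when centred. Rbfox3, the NeuN antigen of postmitotic neurons, had 42.1 FPKM in cKO runners against 87.7 FPKM in control runners (log2 ratio -1.06, SE 0.04). Rbfox1 had 73.6 FPKM in cKO and 116 FPKM in control runners. Against the list, Celf6 rose to 5.91 FPKM in cKO runners, against 2.19 FPKM in control runners, and Elavl2, a neuronal RNA-binding protein, had 23.3 FPKM in cKO and 14.6 FPKM in control runners. Mitochondrial ribosomal proteins numbered 11 lower and 1 not called of 12 kept, and 10 lower and 1 higher when centred. Translation factors numbered 24 lower and 5 higher, the higher ones including the Y-linked Eif2s3y. Centred, translation factors numbered 21 lower and 8 higher.

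Respiratory chain genes numbered 26 lower and 5 higher of 31 kept, with a median of -0.23, close to the median of all kept loci. Uqcrfs1, the Rieske protein of complex III, had 77.1 FPKM in cKO and 96.4 FPKM in control runners, and Ndufs7, of complex I, 69.3 FPKM in cKO and 83.8 FPKM in control runners. Cox4i2, an isoform of complex IV expressed mainly outside neurons, had the largest increase, 3.71 FPKM in cKO against 1.46 FPKM in control runners, a log2 ratio of 1.34 with q = 0.000622 in the authors' deposited table. Centred on the median, the list split 10 higher and 21 lower, and cytosolic ribosomal proteins, 5 higher and 18 lower of 24 kept, split 11 higher and 12 lower. Rps2 was the ribosomal gene furthest up, with 191 FPKM in cKO and 148 FPKM in control runners, and Rps15a the furthest down, with 22.3 FPKM in cKO and 29.4 FPKM in control runners.

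**Figure D2:**
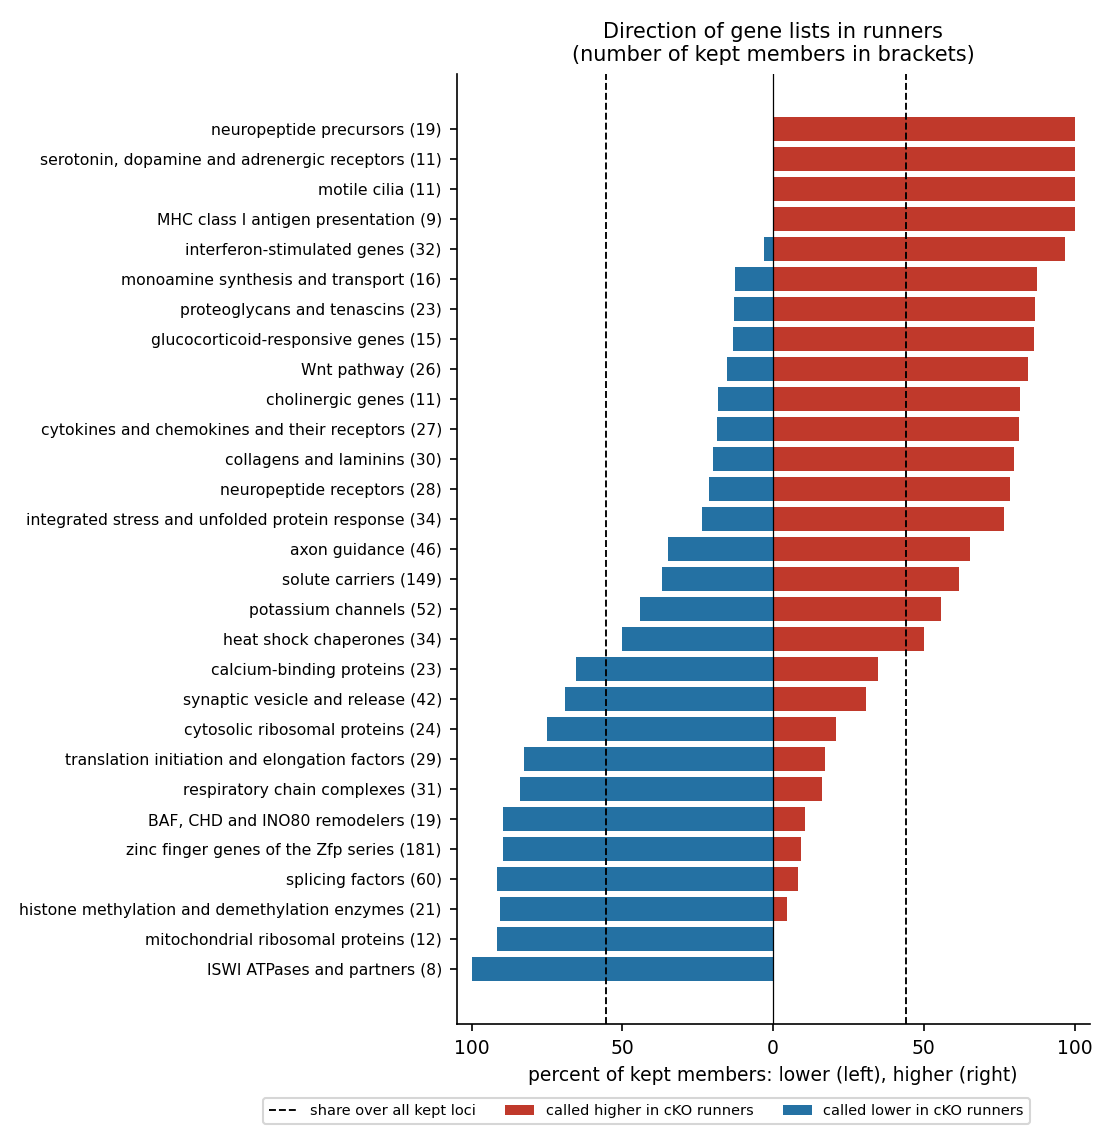
Bars show, for gene lists picked by hand from the 81 lists of function, the percent of kept members called higher in cKO runners (right) and lower (left). The number kept is in brackets, and dashed lines mark the shares over all kept loci, 44.1% and 55.3%. Neuropeptide precursors, aminergic receptors, motile cilia and MHC class I genes lie entirely on the right, and ISWI genes entirely on the left.

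Interferon-stimulated genes were higher in cKO runners as a block. Type I interferon signals through transcription factors that bind an interferon-stimulated response element and induce antiviral genes. Of 40 genes on the list, 32 were kept, 31 of them higher and 29 at least 2-fold higher, with a median log2 ratio of 1.61. Loci at the levels of this list were called higher in 58.9% of cases. Irf7, the transcription factor that amplifies the response, had 5.95 FPKM in cKO runners against 0.909 FPKM in control runners (log2 ratio 2.71, SE 0.31). Oas2, a sensor of double-stranded RNA, had 1.13 FPKM in cKO runners against 0.127 FPKM in control runners (log2 ratio 3.15, SE 0.49). The largest level was that of Lgals3bp, a secreted galectin ligand chosen after its values were seen, with 26.02 FPKM in cKO runners, 5.63 in control runners, 19.2 in cKO sedentary mice and 5.44 in control sedentary mice. Stat2, a transcription factor of the pathway, alone was lower, with 13.5 FPKM in cKO against 19.4 FPKM in control runners, a log2 ratio of -0.53.

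The direction was the same in runners and sedentary mice for 28 of the 28 members with a ratio in both. Over all loci called in both comparisons it was the same for 5867 of 6228, so such agreement was not particular to this list. Irf7 had 4.03 FPKM in cKO and 0.912 FPKM in control sedentary mice, and Oas2 0.584 FPKM in cKO and 0.157 FPKM in control sedentary mice. Of the 28 members, 1 ratio passed the test for a difference between runners and sedentary mice, against 29.7% of all loci tested. It was that of Stat2, which differed by 0.58 (SE 0.13) in a z test with Benjamini-Hochberg adjustment, the SE here and below being that of the authors' statistic. With the SE taken from the deposited p it did not pass. The list lay at low levels, with a median of 3.04 FPKM in the higher runner group. The SE of a difference was accordingly large, for example 0.44 for Irf7 and 1.23 for Isg15. Few passes at such SE do not show that the ratios were alike in the 2 states. Microglia, which express many of these genes, had summed markers of 191 FPKM in cKO runners and 109.6 FPKM in control runners, and their part in the result was not tested.

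Promoters of this list are shown because the response element is the sequence through which the interferon pathway acts. The motif GAAANNGAAA, read on both strands in RefSeq promoters (GRCm38.p6, 250 bases before to 50 after the start of a transcript), occurred in 14 of the 24 higher genes found in the promoter table (58.3%). Over all 27025 genes in that table, 3.99% held it in at least 1 promoter. A match is a description of letters and does not show binding. The list was drawn up as genes of this pathway, so its share of matches says nothing about the effect of genotype. The 4 windows shown are those of the higher genes with a match and the largest log2 ratios, so Oas1a, Ifit1 and Isg15 were chosen after their values were seen. Each holds 60 bases around the first match, 5′ to 3′ on the strand of the gene, with matches in capitals. Overlapping matches run together.
Cxcl10, a chemokine (chr5:92349068-92349127, minus strand, GRCm38.p6): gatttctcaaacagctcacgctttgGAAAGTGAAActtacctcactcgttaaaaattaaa
Oas1a, an RNA sensor (chr5:120907511-120907570, minus strand, GRCm38.p6): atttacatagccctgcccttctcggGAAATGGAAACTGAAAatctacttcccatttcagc
Ifit1, a binder of viral RNA (chr19:34640760-34640819, plus strand, GRCm38.p6): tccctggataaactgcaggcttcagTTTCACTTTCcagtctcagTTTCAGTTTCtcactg
Isg15, a ubiquitin-like modifier (chr4:156200862-156200921, minus strand, GRCm38.p6): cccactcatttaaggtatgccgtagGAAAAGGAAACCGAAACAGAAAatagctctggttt

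The windows differ in how many copies they hold, and in Ifit1 the matches lie on the opposite strand. Cxcl10 had 1.11 FPKM in cKO runners against 0.179 FPKM in control runners (log2 ratio 2.64, SE 0.85), with q = 0.0311 in the authors' deposited table. Oas1a, which has close paralogs that can share its reads, had 2.32 FPKM in cKO runners against 0.406 FPKM in control runners (log2 ratio 2.52, SE 0.50). Ifit1, at the highest level of the 4, had 5.64 FPKM in cKO runners against 1.17 FPKM in control runners (log2 ratio 2.27, SE 0.30). Isg15 had 3.19 FPKM in cKO runners against 0.814 FPKM in control runners (log2 ratio 1.97, SE 0.61), with q = 0.000622 in the authors' deposited table. All 4 were more than 3-fold higher in cKO runners, and in sedentary mice too the cKO value was above the control value, for example 2.64 FPKM in cKO and 0.573 FPKM in control sedentary mice for Isg15.

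**Figure D3:**
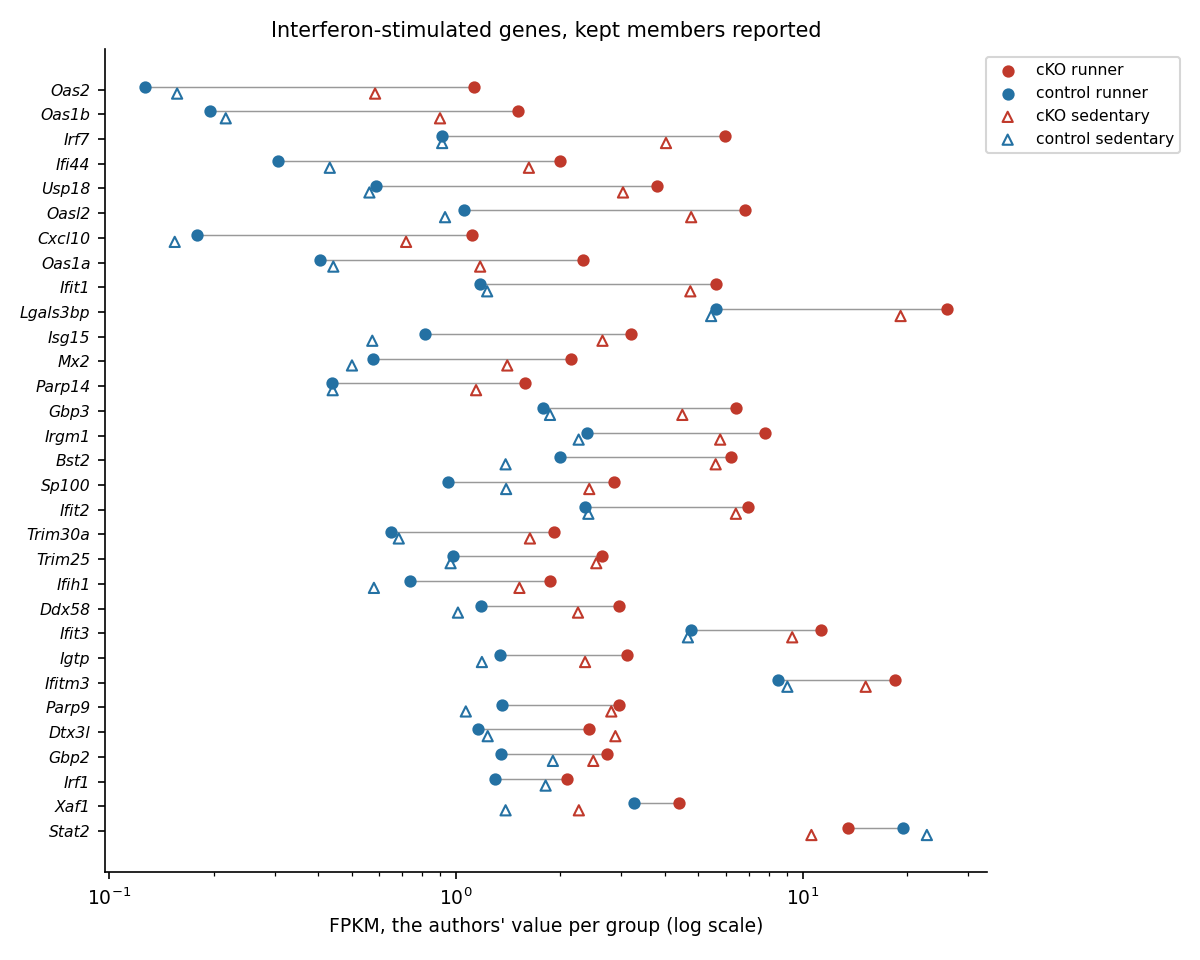
FPKM (log scale) of the kept interferon-stimulated genes reported here in cKO runners (filled red), control runners (filled blue), cKO sedentary mice (open red triangles) and control sedentary mice (open blue triangles), 1 value of the authors per group, ordered by the runner ratio. The cKO runner value lies right of the control runner value in every row but that of Stat2 at the bottom.

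Antigen presentation, complement and cytokine genes moved the same way. All 9 kept MHC class I genes were higher, with a median of 0.94, at levels where 48.3% of loci were called higher. H2-K1, a classical class I heavy chain, had 24.5 FPKM in cKO runners against 7.898 FPKM in control runners (log2 ratio 1.63, SE 0.15). Tap1, the peptide transporter, had 2.46 FPKM in cKO against 0.691 FPKM in control runners, a log2 ratio of 1.83, and Psmb8, an immunoproteasome subunit, 2.5005 FPKM in cKO against 0.642 FPKM in control runners, a log2 ratio of 1.96. H2-K1 and H2-T23, with 9.04 FPKM in cKO against 2.303 FPKM in control runners, a log2 ratio of 1.97, belong to a family of close paralogs between which reads can be split, so their single values are uncertain. Of 10 kept complement genes 9 were higher, at levels where 48.7% of loci were called higher. C3, the central component, had 3.07 FPKM in cKO runners against 0.387 FPKM in control runners (log2 ratio 2.99, SE 0.28). C4b had 13.7 FPKM in cKO runners against 2.38 FPKM in control runners (log2 ratio 2.52, SE 0.15). C1qa, a microglial subunit of the recognition complex, had 14.5 FPKM in cKO against 6.86 FPKM in control runners, a log2 ratio of 1.08. The regulator Cd59a was the exception, with 14.7 FPKM in cKO and 17.6 FPKM in control runners and q = 0.0454 in the authors' deposited table.

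Among cytokines, chemokines and their receptors, 22 of 27 were higher, at levels where 51.9% of loci were called higher. Il33, an alarmin made by oligodendrocytes and astrocytes, had 50.7 FPKM in cKO runners against 11.8 FPKM in control runners (log2 ratio 2.102, SE 0.12), and Cx3cr1, the microglial fractalkine receptor, 6.95 FPKM in cKO against 3.47 FPKM in control runners, a log2 ratio of 1.003. Among the 5 lower were Il16 and Cd70. Il16, whose long form is expressed in granule neurons, had 16.4 FPKM in cKO runners against 46.6 FPKM in control runners (log2 ratio -1.51, SE 0.04), and Cd70, a TNF family ligand, had 0.505 FPKM in cKO against 2.503 FPKM in control runners, a log2 ratio of -2.31 with q = 0.000765 in the authors' deposited table. Ctss, a lysosomal protease of microglia, was the cathepsin furthest up, with 33.5 FPKM in cKO against 14.5 FPKM in control runners, a log2 ratio of 1.21.

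Every kept neuropeptide precursor was higher. Of 36 precursors on the list, 15 were not in the runner comparison and 2 lay on loci that join several symbols, so their direction is unknown. All 19 kept precursors rose, 9 of them at least 2-fold, with a median of 0.94. Loci at the levels of this list were called higher in 52.5% of cases. Cartpt, which encodes the CART peptides, had 10.2 FPKM in cKO runners against 0.554 FPKM in control runners (log2 ratio 4.19, SE 0.55). Calca, of calcitonin gene-related peptide, had 5.103 FPKM in cKO runners against 0.485 FPKM in control runners (log2 ratio 3.39, SE 0.57). Pdyn, of the dynorphins, had 2.81 FPKM in cKO runners against 0.612 FPKM in control runners (log2 ratio 2.197, SE 0.55). Ucn, of urocortin, had 1.64 FPKM in cKO runners and is listed at 0 in control runners. Outside the list, Rln3, of relaxin-3, had 11.2 FPKM in cKO runners and is listed at 0 in control runners. Penk, of the enkephalins, had the smallest change, 88.4 FPKM in cKO and 76.6 FPKM in control runners, with q = 0.00275 in the authors' deposited table. Cartpt and Calca are also on the hindbrain and midbrain marker list. Without the 4 precursors on any marker list, the 15 others were all higher with a median of 0.94.

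Prohormone processing genes split 12 higher and 5 lower. Vgf, the secreted precursor named in the title of the series, had 33.2 FPKM in cKO runners against 10.7 FPKM in control runners (log2 ratio 1.63, SE 0.13). Pcsk1, a prohormone convertase, had 20.9 FPKM in cKO against 10.1 FPKM in control runners, a log2 ratio of 1.05, and Cpe, carboxypeptidase E, 942 FPKM in cKO against 641 FPKM in control runners, a log2 ratio of 0.56. Cadps2, a release factor of granule neurons, fell to 36.3 FPKM in cKO runners, against 76.1 FPKM in control runners.

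Genes of monoamine and acetylcholine neurons were among the largest ratios of any locus. Cell bodies that make these transmitters lie in the hindbrain and midbrain and send axons to the cerebellum. Of 16 kept monoamine genes 14 were higher, with a median of 1.76, and of 11 kept cholinergic genes 9 were higher, with a median of 1.85. Loci at the levels of the monoamine list were called higher in 42.0% of cases, and at those of the cholinergic list in 58.8%. The dopamine transporter gene Slc6a3 had 8.03 FPKM in cKO runners against 0.0508 FPKM in control runners (log2 ratio 7.31, SE 0.76), with q = 0.000906 in the authors' deposited table. The serotonin transporter gene Slc6a4 had 11.3 FPKM in cKO runners against 0.352 FPKM in control runners (log2 ratio 5.003, SE 0.37). Tph2, which makes serotonin in the brain, had 21.3 FPKM in cKO runners against 1.05 FPKM in control runners (log2 ratio 4.35, SE 0.24). These belong to 3 transmitter systems together with Dbh, which makes noradrenaline, at 11.2 FPKM in cKO runners against 0.355 FPKM in control runners (log2 ratio 4.98, SE 0.37).

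Chat, which makes acetylcholine, had 2.58 FPKM in cKO runners against 0.192 FPKM in control runners (log2 ratio 3.75, SE 0.49). Slc5a7, the choline transporter, had 3.89 FPKM in cKO runners against 0.332 FPKM in control runners (log2 ratio 3.55, SE 0.29). Slc18a3, the vesicular acetylcholine transporter, had 2.03 FPKM in cKO against 0.0697 FPKM in control runners, a log2 ratio of 4.86 with q = 0.00916 in the authors' deposited table. Of the 7 genes just named, Tph2 alone had a control runner value above 1 FPKM, so these ratios rest on low levels. Of the monoamine genes 7 are on the hindbrain and midbrain list, and without marker genes 7 of 9 were higher with a median of 0.43. For cholinergic genes 5 of 7 remained higher (median 1.03), among them the nicotinic subunit Chrna6, with 1.84 FPKM in cKO against 0.275 FPKM in control runners, a log2 ratio of 2.74. Lmx1b, a factor of serotonin and dopamine neurons, had 1.04 FPKM in cKO against 0.123 FPKM in control runners, a log2 ratio of 3.08, whereas En2, a midbrain and cerebellar factor that granule neurons express, had 25.7 FPKM in cKO against 58.9 FPKM in control runners, a log2 ratio of -1.197.

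**Figure D4:**
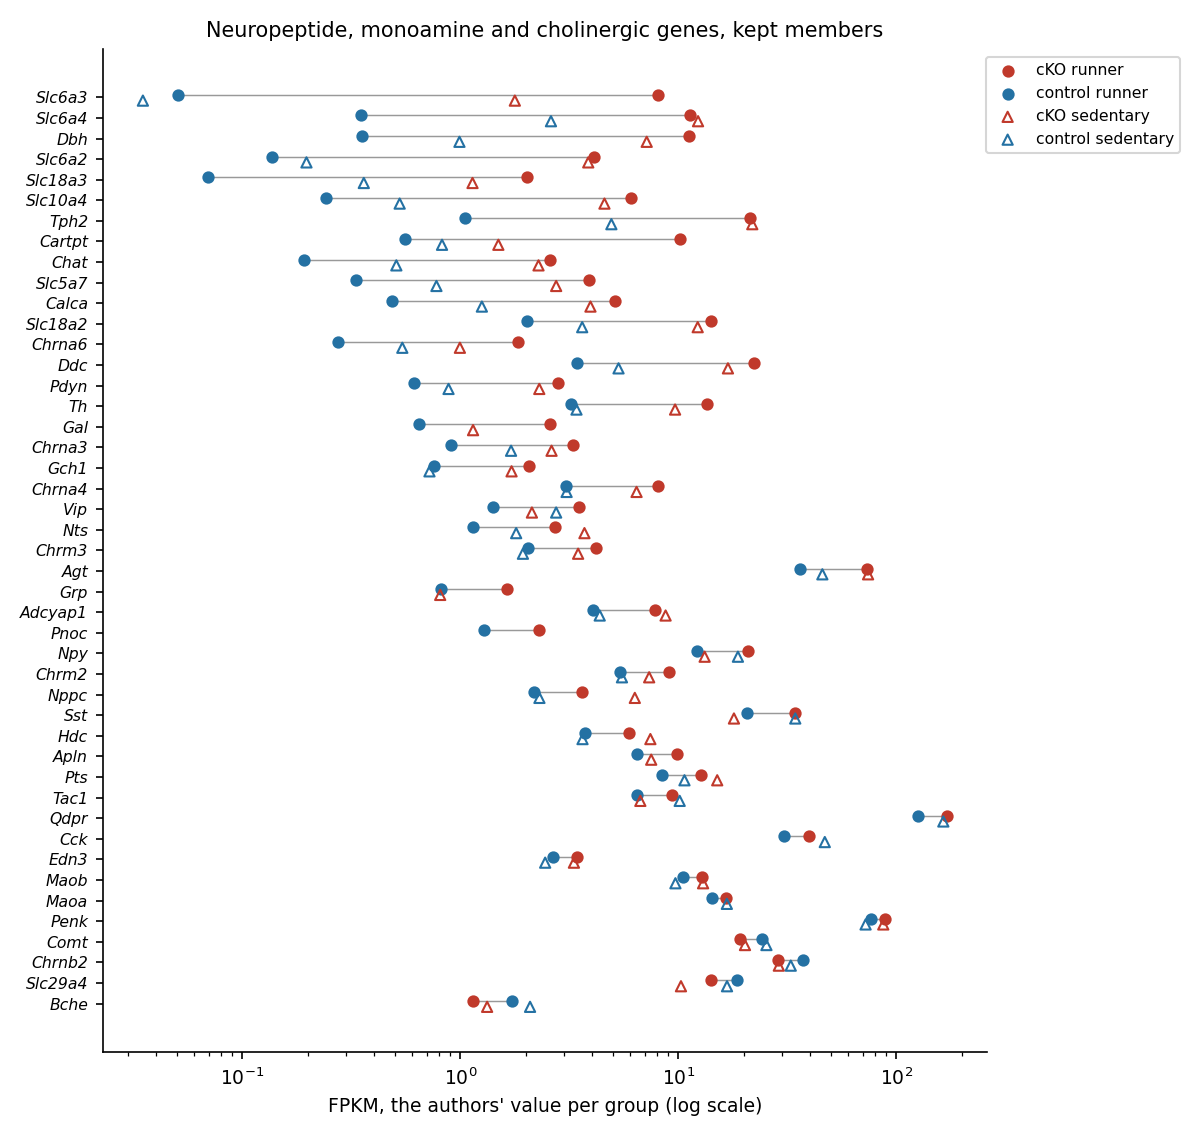
FPKM (log scale) of the kept neuropeptide, monoamine and cholinergic genes in cKO runners (filled red), control runners (filled blue), cKO sedentary mice (open red triangles) and control sedentary mice (open blue triangles), 1 value of the authors per group, ordered by the runner ratio; Ucn, listed at 0 in control runners, is not drawn. The top rows, Slc6a3 to Slc5a7, have control runner values of 1.05 FPKM or less and cKO runner values of 2.03 FPKM or more.

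Kept receptor genes for the same transmitters were mostly higher too. All 11 kept serotonin, dopamine and adrenergic receptor genes rose (median 1.12). Of the 19 on the list, 5 stayed below an FPKM of 1 and 3 were not in the runner comparison. Loci at the levels of the kept genes were called higher in 55.9% of cases, and some entered only through their cKO value. Htr7 had 3.23 FPKM in cKO runners against 1.23 FPKM in control runners (log2 ratio 1.39, SE 0.24), and Htr1a, a serotonin autoreceptor, 2.39 FPKM in cKO against 0.917 FPKM in control runners, a log2 ratio of 1.38. Adra2b, an adrenergic receptor, had the largest ratio, 1.25 FPKM in cKO against 0.339 FPKM in control runners, a log2 ratio of 1.88, and Adra1d the smallest, 3.395 FPKM in cKO against 2.64 FPKM in control runners, a log2 ratio of 0.36 with q = 0.0106 in the authors' deposited table. None of these genes is on a marker list. Of 28 kept neuropeptide receptors, 22 were higher and 6 lower, at levels where 59.9% of loci were called higher. Prokr2, the prokineticin receptor, had 3.096 FPKM in cKO runners against 0.252 FPKM in control runners (log2 ratio 3.62, SE 0.34). Oxtr, the oxytocin receptor, had 2.07 FPKM in cKO against 0.306 FPKM in control runners, a log2 ratio of 2.76, and Hcrtr1, an orexin receptor, 3.34 FPKM in cKO against 0.419 FPKM in control runners, a log2 ratio of 2.99. Vipr1, a receptor for vasoactive intestinal peptide, fell to 0.665 FPKM in cKO runners, against 2.93 FPKM in control runners.

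GABA-A and glycine receptor genes divided by subunit, 8 higher and 9 lower. Glra4 (X chromosome) had the largest ratio, 24.8 FPKM in cKO runners against 0.646 FPKM in control runners (log2 ratio 5.26, SE 0.27). Glra1, the adult glycine receptor of brainstem and spinal cord, had 7.68 FPKM in cKO against 1.83 FPKM in control runners, a log2 ratio of 2.07. Gabre, a subunit of locus coeruleus neurons, had 1.38 FPKM in cKO against 0.1697 FPKM in control runners, a log2 ratio of 3.03, and Gabrq 3.48 FPKM in cKO against 0.9902 FPKM in control runners, a log2 ratio of 1.81. The subunits of mature granule neurons went down. Gabra6 fell to 126 FPKM in cKO runners, against 421 FPKM in control runners (log2 ratio -1.74). Gabrd, which joins it in extrasynaptic receptors, had 31.6 FPKM in cKO against 99.6 FPKM in control runners, a log2 ratio of -1.65. Ionotropic glutamate receptors split 6 higher and 8 lower. Grin2c, the NMDA receptor subunit of mature granule neurons, had 29.3 FPKM in cKO against 60.9 FPKM in control runners, a log2 ratio of -1.06, and Gria4 73.5 FPKM in cKO against 161 FPKM in control runners, a log2 ratio of -1.13, while Grin2b, the NMDA receptor subunit of immature neurons, had 1.296 FPKM in cKO against 0.802 FPKM in control runners, a log2 ratio of 0.69. Grm4, the presynaptic receptor of parallel fibres, had 68.2 FPKM in cKO against 155 FPKM in control runners, a log2 ratio of -1.18.

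Ion channels showed no common direction, with 29 potassium channel genes higher and 23 lower of 52 kept. Kcnq5, an M-current subunit, had 1.84 FPKM in cKO against 0.5795 FPKM in control runners, a log2 ratio of 1.66, and Kcnj12, an inward rectifier, 11.1 FPKM in cKO against 25.9 FPKM in control runners, a log2 ratio of -1.23. Voltage-gated calcium channel genes numbered 7 higher and 11 lower, and when centred on the median 10 higher and 8 lower. The T-type channel gene Cacna1g and the auxiliary subunit gene Cacna2d2, both strong in Purkinje cells, were higher, with 63.2 FPKM in cKO and 38.2 FPKM in control runners for Cacna1g and 52.9 FPKM in cKO and 31.3 FPKM in control runners for Cacna2d2. Cacna1c, of the L-type channel, had 3.96 FPKM in cKO against 6.35 FPKM in control runners, a log2 ratio of -0.68. Scn3b, a sodium channel auxiliary subunit, had 9.27 FPKM in cKO against 3.68 FPKM in control runners, a log2 ratio of 1.33, and Scnn1g, of the epithelial sodium channel, 0.383 FPKM in cKO against 1.997 FPKM in control runners, a log2 ratio of -2.38.

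Genes of vesicle release and of calcium binding leaned lower before centring on the median of all kept loci. Of 42 kept vesicle genes 29 were lower (median -0.26), and 17 were higher and 25 lower when centred on the median. Synpr, synaptoporin, had 21.3 FPKM in cKO against 57.01 FPKM in control runners, a log2 ratio of -1.42, and Sv2b, a vesicle glycoprotein, 39.1 FPKM in cKO against 89.4 FPKM in control runners, a log2 ratio of -1.19. Snap25, the most abundant of the list, had 1183 FPKM in cKO against 1377 FPKM in control runners, a log2 ratio of -0.22. The syntaxin gene Stx1a went against the list, with 6.095 FPKM in cKO against 2.83 FPKM in control runners, a log2 ratio of 1.11. Slc17a7, the vesicular glutamate transporter of granule neurons, had 84.1 FPKM in cKO and 183 FPKM in control runners, and Slc17a6, the form used in the deep nuclei, brainstem and climbing fibres, 47.6 FPKM in cKO and 27.1 FPKM in control runners. Calcium-binding protein genes numbered 8 higher and 15 lower, and when centred on the median 11 higher and 12 lower. Calb2, calretinin of granule neurons, had 90.6 FPKM in cKO against 215 FPKM in control runners, a log2 ratio of -1.25, and Hpca, hippocalcin, 78.5 FPKM in cKO against 38.9 FPKM in control runners, a log2 ratio of 1.01. Purkinje cell markers summed to 4150 FPKM in cKO runners and 3115 FPKM in control runners over 24 loci.

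Synapse organizers split 19 higher and 14 lower. Cbln1, which granule neurons secrete to hold parallel fibre synapses, fell to 102 FPKM in cKO runners, against 291 FPKM in control runners. Cbln3, which assembles with it, had 114 FPKM in cKO and 320.2 FPKM in control runners. The related Cbln4 was higher, with 6.35 FPKM in cKO against 1.93 FPKM in control runners, a log2 ratio of 1.72, as was C1ql2, with 2.08 FPKM in cKO against 0.343 FPKM in control runners, a log2 ratio of 2.597. Of 46 kept axon guidance genes 30 were higher (65.2%), at levels where 47.9% of loci were called higher. The repellent gene Slit2 had 4.05 FPKM in cKO and 1.41 FPKM in control runners, and Slit1 had 3.67 FPKM in cKO and 1.405 FPKM in control runners. Among ephrin receptors Epha5 had 10.99 FPKM in cKO against 4.51 FPKM in control runners, a log2 ratio of 1.28, and Epha3 2.43 FPKM in cKO against 5.47 FPKM in control runners, a log2 ratio of -1.17. Cadherins and protocadherins numbered 21 higher and 17 lower, the granule neuron cadherins being among the decreases: Fat2 had 17.03 FPKM in cKO against 48.7 FPKM in control runners, a log2 ratio of -1.52, and Cdh15 6.01 FPKM in cKO against 20.001 FPKM in control runners, a log2 ratio of -1.73. Pcdh8, an activity-regulated protocadherin, had 6.95 FPKM in cKO against 1.95 FPKM in control runners, a log2 ratio of 1.83.

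Matrix genes were mostly higher. Of 30 kept collagen, laminin and basement membrane genes 24 were higher (median 0.59), and of 23 kept proteoglycan and tenascin genes 20. Col11a1, a fibrillar collagen, had 2.58 FPKM in cKO against 0.733 FPKM in control runners, a log2 ratio of 1.81, and Fmod, fibromodulin, 21.8 FPKM in cKO runners against 8.204 FPKM in control runners (log2 ratio 1.41, SE 0.13). Col9a3 was the collagen furthest down, with 5.86 FPKM in cKO against 9.99 FPKM in control runners, a log2 ratio of -0.77, and Sdc1, syndecan-1, fell to 2.16 FPKM in cKO runners, against 5.75 FPKM in control runners. Meningeal markers, a list that shares the matrix theme, summed to 1395 FPKM in cKO runners and 847 FPKM in control runners, and their part in the result was not tested. Matrix proteases and inhibitors did not share a direction, with 17 higher and 14 lower. Adamtsl1 had 4.52 FPKM in cKO against 0.915 FPKM in control runners, a log2 ratio of 2.303, and Adamts18 1.86 FPKM in cKO against 5.12 FPKM in control runners, a log2 ratio of -1.46.

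Klk6, a kallikrein protease enriched in oligodendrocytes (plus strand of chromosome 7, 43824499 to 43832030, mm10), gave the largest decrease by ratio of any kept locus with a value above 0 in both groups. It had 0.543 FPKM in cKO runners, 13.7 in control runners, 0.576 in cKO sedentary mice and 17.01 in control sedentary mice, a log2 ratio of -4.66 in runners. Serpine2, protease nexin-1, rose to 163 FPKM in cKO runners, against 70.7 FPKM in control runners. Other large decreases by ratio were of Akr1b7, an aldo-keto reductase, with 0.239 FPKM in cKO and 1.301 FPKM in control runners and q = 0.000765 in the authors' deposited table, Emilin3, a matrix glycoprotein, with 0.555 FPKM in cKO and 2.87 FPKM in control runners, Slco2a1, the prostaglandin transporter, with 0.7503 FPKM in cKO and 3.28 FPKM in control runners, and Sebox, a homeobox gene, with 1.12 FPKM in cKO and 4.86 FPKM in control runners.

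Growth factor pathways leaned to higher values. Of 26 kept Wnt pathway genes 22 were higher (median 0.67), at levels where 59.5% of loci were called higher. Fzd10, a receptor, had 1.21 FPKM in cKO against 0.346 FPKM in control runners, a log2 ratio of 1.803, and Fzd2 2.92 FPKM in cKO against 1.18 FPKM in control runners, a log2 ratio of 1.304. Of the 4 lower, Wnt7a, a ligand made by granule neurons, had 8.58 FPKM in cKO runners against 30.9 FPKM in control runners (log2 ratio -1.85, SE 0.14), and the receptor gene Fzd7 7.57 FPKM in cKO against 16.5 FPKM in control runners, a log2 ratio of -1.13. Of 12 kept genes of the IGF system 10 were higher, led by the adaptor Irs4, with 1.73 FPKM in cKO against 0.231 FPKM in control runners, a log2 ratio of 2.91, and the binding protein Igfbp7, with 34.2 FPKM in cKO against 14.3 FPKM in control runners, a log2 ratio of 1.26. The receptor Igf2r was lower, with 6.76 FPKM in cKO against 9.32 FPKM in control runners, a log2 ratio of -0.47.

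In the TGF-beta and BMP pathway 22 genes were higher and 11 lower. The ligand gene Bmp2 had 1.74 FPKM in cKO and 0.478 FPKM in control runners, and Bmp4 3.098 FPKM in cKO and 1.31 FPKM in control runners. Their antagonist Nog, noggin, had 8.74 FPKM in cKO and 3.53 FPKM in control runners, so ligands and antagonist rose together. Neurotrophin and GDNF family genes split 6 higher and 4 lower. Ntf3, neurotrophin-3, fell to 1.46 FPKM in cKO runners, against 4.88 FPKM in control runners, while the GDNF receptor Gfra1 had 11.9 FPKM in cKO against 4.96 FPKM in control runners, a log2 ratio of 1.26. Dlk1, an imprinted Notch ligand, had 14.9 FPKM in cKO runners against 1.61 FPKM in control runners (log2 ratio 3.21, SE 0.17). In the same list of imprinted genes Nnat, neuronatin, had 169.6 FPKM in cKO against 62.5 FPKM in control runners, a log2 ratio of 1.44, the calcitonin receptor gene Calcr 2.16 FPKM in cKO against 0.368 FPKM in control runners, a log2 ratio of 2.55, and Mkrn3 1.44 FPKM in cKO against 3.304 FPKM in control runners, a log2 ratio of -1.19. Of the FGF ligands, Fgf10 had 2.21 FPKM in cKO against 0.823 FPKM in control runners, a log2 ratio of 1.42, and Fgf1 44.6 FPKM in cKO against 23.8 FPKM in control runners, a log2 ratio of 0.91. Fgf14, an intracellular channel partner rather than a ligand, had 23.8 FPKM in cKO against 44.6 FPKM in control runners, a log2 ratio of -0.91.

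Glucocorticoid-responsive genes were mostly higher. Of 15 kept glucocorticoid-responsive genes 13 were higher (median 0.54). Plin4, a lipid droplet protein, had 5.69 FPKM in cKO against 1.89 FPKM in control runners, a log2 ratio of 1.59, Cdkn1a, the p21 inhibitor, 21.5 FPKM in cKO against 13.9 FPKM in control runners, a log2 ratio of 0.63, and Sgk1, a kinase, 95.3 FPKM in cKO against 62.97 FPKM in control runners, a log2 ratio of 0.60. Dusp1, a MAP kinase phosphatase, was lower, with 28.8 FPKM in cKO against 42.2 FPKM in control runners, a log2 ratio of -0.55. Of 34 kept stress response genes 26 were higher. Trib3, a pseudokinase induced by ATF4, had 1.55 FPKM in cKO against 0.452 FPKM in control runners, a log2 ratio of 1.78, Slc7a11, the cystine transporter, 9.696 FPKM in cKO against 4.81 FPKM in control runners, a log2 ratio of 1.01, and Atf5 10.3 FPKM in cKO against 5.98 FPKM in control runners, a log2 ratio of 0.78. Heat shock genes split 17 higher and 17 lower, and when centred on the median 23 higher and 11 lower. Of 11 kept thyroid hormone pathway genes, 5 were higher and 6 lower (median -0.13), and among them Iyd, which recovers iodide, had 4.98 FPKM in cKO runners against 0.244 FPKM in control runners (log2 ratio 4.35, SE 0.59).

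Activity-regulated transcription factors split 4 higher and 7 lower. Jun had 18.5 FPKM in cKO against 33.2 FPKM in control runners, a log2 ratio of -0.84, Egr3 2.401 FPKM in cKO against 1.301 FPKM in control runners, a log2 ratio of 0.88, and Klf4 3.24 FPKM in cKO against 1.56 FPKM in control runners, a log2 ratio of 1.06. Their effectors numbered 10 higher and 7 lower, with Dusp5, a phosphatase of ERK, at 21.9 FPKM in cKO against 52.2 FPKM in control runners, a log2 ratio of -1.25, and Rgs4, a regulator of G-protein signalling, at 28.1 FPKM in cKO against 14.01 FPKM in control runners, a log2 ratio of 1.002. Genes of the circadian clock split 6 higher and 5 lower. The repressor gene Nr1d1 had 64.4 FPKM in cKO and 89.8 FPKM in control runners, Nr1d2 61.9 FPKM in cKO and 82.4 FPKM in control runners, and the activator gene Npas2 2.16 FPKM in cKO and 1.29 FPKM in control runners.

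Genes of cyclases and phosphodiesterases numbered 13 higher and 6 lower, and those of protein kinase C, CaM kinases and calcineurin 14 higher, 16 lower and 1 not called. When centred on the median, the kinase and calcineurin list split 16 higher and 14 lower. Adcy1, a calcium-stimulated adenylyl cyclase of granule neurons, fell to 71.9 FPKM in cKO runners, against 215 FPKM in control runners (log2 ratio -1.58). Camk4, the nuclear CaM kinase of the same cells, had 26.7 FPKM in cKO against 67.8 FPKM in control runners, a log2 ratio of -1.34, and its activator Camkk2 30.1 FPKM in cKO against 64.6 FPKM in control runners, a log2 ratio of -1.100. Glycolysis and lactate genes numbered 12 higher and 9 lower, tricarboxylic acid cycle genes 6 higher and 13 lower, and cholesterol genes 8 higher and 11 lower. Centred on the median of all kept loci, glycolysis and lactate genes numbered 13 higher and 8 lower. Tricarboxylic acid cycle genes then numbered 13 higher and 6 lower, and cholesterol genes 11 higher and 8 lower, so neither list leaned lower against that median. Pfkfb3, which drives glycolysis in astrocytes, had 20.3 FPKM in cKO against 11.6 FPKM in control runners, a log2 ratio of 0.81, and Srebf1, a regulator of lipid synthesis, 35.6 FPKM in cKO against 17.1 FPKM in control runners, a log2 ratio of 1.05. Car4, a membrane carbonic anhydrase, had 23.4 FPKM in cKO against 68.4 FPKM in control runners, a log2 ratio of -1.55, and Car8, a Purkinje cell protein of that family, 467 FPKM in cKO against 324 FPKM in control runners, a log2 ratio of 0.53. Of 149 kept solute carriers 92 were higher, among them the GABA transporter gene Slc6a11, with 115 FPKM in cKO against 44.3 FPKM in control runners, a log2 ratio of 1.38.

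The 11 kept motile cilia genes, which ependymal and choroid plexus cells use to move fluid, were all higher. Of the 50 on the list, 33 were not in the runner comparison, 4 stayed below an FPKM of 1 and 2 lay on joined loci. The 11 kept had a median of 0.92 at levels of at most 3.21 FPKM, a range in which 71.0% of all loci were higher. Tmem212 had 2.67 FPKM in cKO against 0.9999 FPKM in control runners, a log2 ratio of 1.42 with q = 0.00423 in the authors' deposited table, and Rsph4a, a radial spoke protein, 1.68 FPKM in cKO against 0.885 FPKM in control runners, a log2 ratio of 0.92. In the cytoskeleton, Gfap, the intermediate filament of astrocytes, had 280.3 FPKM in cKO runners against 80.2 FPKM in control runners (log2 ratio 1.81, SE 0.03), Prph, peripherin, 2.68 FPKM in cKO against 0.289 FPKM in control runners, a log2 ratio of 3.21, and Nefh, the heavy neurofilament, 70.9 FPKM in cKO against 32.3 FPKM in control runners, a log2 ratio of 1.14. Tubb2b, a tubulin of developing neurons, was lower, with 26.3 FPKM in cKO against 44.4 FPKM in control runners, a log2 ratio of -0.75.

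By size in FPKM the ranking was different, and abundant glial and neuronal transcripts led it. Among the largest increases were Ptgds, a prostaglandin synthase of meninges and oligodendrocytes, with 1139 FPKM in cKO and 699.5 FPKM in control runners, and Glul, the glutamine synthetase of astrocytes, with 751 FPKM in cKO and 402 FPKM in control runners. The largest decreases were of Nrep, a gene named for neuronal regeneration, with 225 FPKM in cKO and 627 FPKM in control runners, the membrane glycoprotein gene Gpm6a, with 355 FPKM in cKO and 679 FPKM in control runners, and Gabra6. Neurod1, a granule neuron transcription factor, fell to 71.2 FPKM in cKO runners, against 237 FPKM in control runners.

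The genotype ratio in runners was then set against that in sedentary mice, which share no library with it. Of 6327 loci kept in both comparisons, 1881 differed at an adjusted p below 0.05 (29.7%, z test with Benjamini-Hochberg adjustment). The ratio was higher in runners for 915 (14.5%) and lower for 966 (15.3%), by at least 2-fold for 54 higher and 41 lower ones. Of the loci tested, 6228 were called in both comparisons, since the sedentary comparison too lists little but called loci. Loci changed in runners alone or in sedentary mice alone are thus mostly missing. The 29.7% therefore does not estimate how often the ratio differs over all loci. Signs were opposite for 368 loci, of which 362 passed the test. Opposite ratios that are both called pass nearly by construction, so no conclusion is drawn from that count. With the SE taken from the deposited p, which stops at 5e-05 and so caps the statistic of every strongly changed locus, 189 passed as higher and 374 as lower. A positive difference can come from any of the 4 values, which are therefore given. The 2 control groups also differed in sex-linked transcripts. Eif2s3y had 0.0334 FPKM in control runners and 7.43 in control sedentary mice, and Xist 57.6 and 34.8. Running and sex of the pooled mice thus cannot be told apart in the differences below. The differences named in the next paragraphs passed the test unless stated.

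Peptide and transmitter genes led the positive differences. For Cartpt the ratio differed by 3.34 (SE 0.79), and the levels were 10.2 FPKM in cKO runners, 0.554 in control runners, 1.49 in cKO sedentary mice and 0.824 in control sedentary mice. The cKO runner value alone stood apart there. For Slc6a4 the difference was 2.76 (SE 0.41), with 11.3 FPKM in cKO runners, 0.352 in control runners, 12.3 in cKO sedentary mice and 2.604 in control sedentary mice. For Tph2 it was 2.198 (SE 0.29), with 21.8 FPKM in cKO and 4.93 FPKM in control sedentary mice. In both serotonin genes the cKO values of runners and sedentary mice were close and the control runner value lay below the control sedentary value. Of 16 hindbrain and midbrain markers tested, 10 had a higher ratio in runners and 0 a lower one. With the SE from the deposited p, Cartpt passed and Slc6a4 and Tph2 did not, and 1 hindbrain and midbrain marker remained. Tcf7l2, a Wnt effector strong in thalamus and midbrain, differed by 1.82 (SE 0.31), with 23.99 FPKM in cKO runners, 17.8 in control runners, 8.01 in cKO sedentary mice and 20.99 in control sedentary mice and q = 0.00186 in the authors' deposited table, the cKO sedentary value being the low one.

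Some genes changed direction. Sst, somatostatin, had 34.2 FPKM in cKO runners, 20.7 in control runners, 17.99 in cKO sedentary mice and 34.4 in control sedentary mice, a difference of 1.66 (SE 0.27). Npy, neuropeptide Y, had 20.97 FPKM in cKO runners, 12.2 in control runners, 13.2 in cKO sedentary mice and 18.8 in control sedentary mice, a difference of 1.29 (SE 0.22). Both peptide genes were thus higher in the cKO among runners and lower in it among sedentary mice. Sgk1 had 36.4 FPKM in cKO and 41.4 FPKM in control sedentary mice, a difference of 0.78 (SE 0.09). Neurod1 and Calb2 were lower in the cKO in both states and by less in runners, the difference being 1.102 (SE 0.08) for Neurod1 and 1.22 (SE 0.09) for Calb2. Of 22 granule neuron markers tested, 13 had a positive difference past the test and 1 a negative one. Of 21 ribosomal protein genes tested, 20 were positive and 0 negative, and of 31 respiratory chain genes 16 were positive and 0 negative. With the SE from the deposited p, Sst, Npy and Sgk1 passed, Neurod1 and Calb2 did not, and 0 granule neuron markers, 12 ribosomal and 3 respiratory chain genes were positive. Centring on loci of like transcript length left 14 ribosomal genes positive and turned the respiratory chain to 1 positive and 6 negative.

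Genes of the choroid plexus led the negative differences. Ttr, transthyretin, which the plexus secretes, had 610.2 FPKM in cKO runners, 518 in control runners, 639.6 in cKO sedentary mice and 77.7 in control sedentary mice, a difference of -2.804 (SE 0.08). Kl, klotho, had 11.7 FPKM in cKO runners, 8.01 in control runners, 12.8 in cKO sedentary mice and 1.84 in control sedentary mice, a difference of -2.25 (SE 0.20). Prlr, the prolactin receptor, had 1.46 FPKM in cKO runners, 2.202 in control runners, 1.43 in cKO sedentary mice and 0.392 in control sedentary mice, a difference of -2.45 (SE 0.37), with q = 0.000622 in the authors' deposited table. In all 3 genes the control sedentary value was the lowest of the 4, and all 8 choroid plexus markers tested had a negative difference. Cacna1g of Purkinje cells had a difference of -0.86 (SE 0.03), and Cacna2d2 -0.86 (SE 0.05). Of 18 Purkinje cell markers tested 15 were negative and 2 positive. With the SE from the deposited p, 7 choroid plexus and 4 Purkinje cell markers stayed negative, and Cacna1g and Cacna2d2 did not pass. Smarca5 did not pass, with a difference of 0.08 (SE 0.20), nor did Klk6, with 0.23 (SE 0.65). When centred on loci of like length, Smarca5 passed with a difference of 0.48, and the Klk6 difference changed sign to -0.014.

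**Figure D5:**
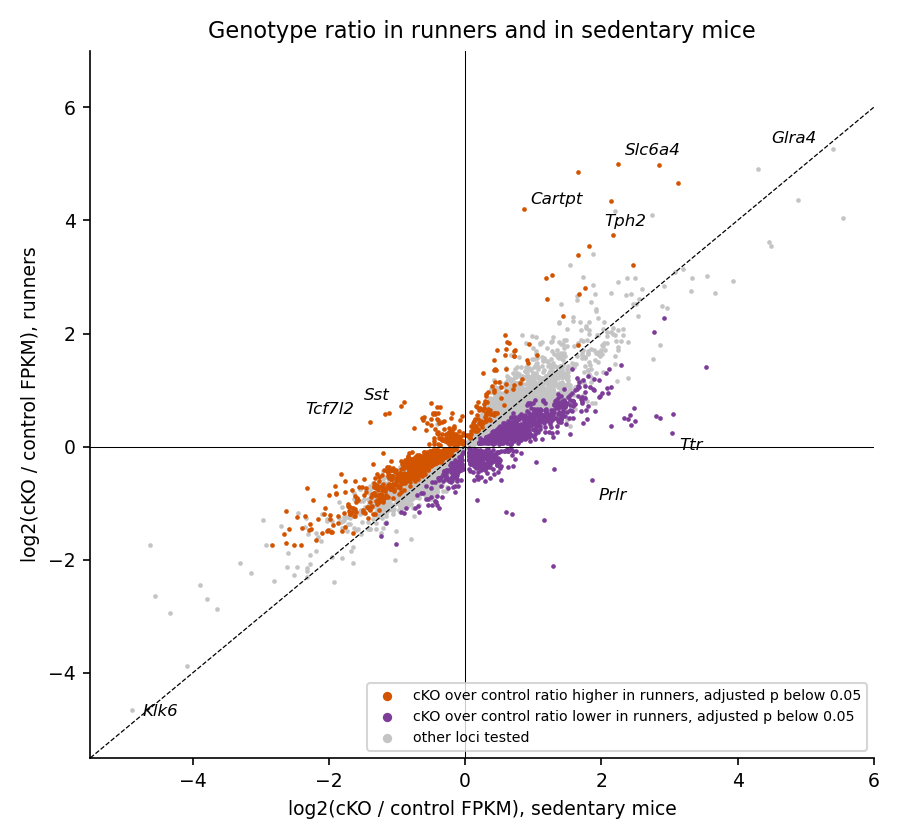
Each point is a locus kept in both genotype comparisons, with the log2 ratio of cKO to control in sedentary mice on the horizontal axis and in runners on the vertical axis; the dashed line marks equal ratios. Points past the test lie above it (orange, 915) or below it (purple, 966), with Cartpt and Slc6a4 high above and Ttr and Prlr far below.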

How the data were processed

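RNA of 8 libraries, each labelled as a pool of 3 cerebella, was sequenced as paired reads, per the labels' protocols. TopHat2 2.0.8b, Cufflinks 2.1.1 and Cuffdiff with build mm10 come from the submitters' processing notes. The authors deposited 1 FPKM per group and locus, with the libraries of a group already combined, a log2 ratio, a test statistic (a score) and a p-value and q-value of their own test. Read depth is unknown, and p-values measure only the spread the authors' model drew from 2 libraries per group. The titles carry lane letters A and B, whose meaning is not stated. Whether the 2 libraries of a group come from separate pools is therefore unknown, and so is whether that spread holds differences between mice.

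The deposited log2 ratio of the runner table runs control over cKO and was turned round. Ratios were recomputed from FPKM, and 9 loci differed from the deposited one by over 0.01. The 13151 group values that occur in more than 1 table did not differ between tables. Loci that reached an FPKM of 1 in either group were kept (583 did not). Of the kept loci 6914 had 1 symbol, 480 joined several and 128 had none, and only the first entered gene lists, each symbol by its locus of highest FPKM. The difference between runner and sedentary ratios was tested with a two-sided z test, SE being the ratio over the deposited statistic. This reads the statistic as a normal score, which is approximate: its median ratio to the normal quantile of the deposited p was 0.72. The z test was also run on simulated data, which cannot show whether these SE are right for 2 libraries per group. Motifs were searched in RefSeq promoters. The tables were read with pandas 2.3.3 and tested with scipy 1.17.1 in Python 3.11.15, and plots drawn with matplotlib 3.10.9. Members and lists (94) were chosen with earlier results of these data known, and the heat shock list lost 1 wrong match after values were seen. Genes named are Smarca5, sex-linked genes, the 10 largest changes in each direction by ratio, FPKM and difference, up to 4 of smallest q and the extremes of each list; Ifit1, Isg15, Lgals3bp and Oas1a were chosen after their values were seen, and the threshold neighbours by nearness to it. Some genes that the rule names are not reported here. Lists of Hox, mitochondrial genome and haemoglobin genes had no kept member. Alternatives were other FPKM, q and fold thresholds, pseudocounts, centring and the SE.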

Additional observations from a re-analysis of the deposited data

Results flagged for a closer look

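Of the genes named, 173 were tested for a difference in cKO over control log2 ratio between runners and sedentary mice. For 18 of them it differed by at least 1 at an adjusted p below 0.05. The test was a z test of the difference itself with Benjamini-Hochberg adjustment over 6327 loci. Over all those loci, 54 were higher and 41 lower in runners by that much. Genes with the largest differences were named by rule, so the count of 18 is no result about the named genes. The cholinergic genes Slc18a3, Chat and Slc5a7 differed by 3.21 (SE 1.02), 1.58 (SE 0.61) and 1.72 (SE 0.36). The monoamine genes Slc6a4, Tph2 and Dbh differed by 2.76, 2.198 and 2.13 (SE 0.45). The peptide genes Cartpt, Calca, Sst and Npy differed by 3.34, 1.74 (SE 0.69), 1.66 and 1.29. The receptor subunit gene Gabre differed by 1.75 (SE 0.69), and the Wnt effector gene Tcf7l2 by 1.82. Genes lower in the cKO in both states but by less in runners were Neurod1, Calb2 and Car4, at 1.102, 1.22 and 1.11 (SE 0.18). Negative differences were those of Ttr at -2.804, Prlr at -2.45 and Kl at -2.25.

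The 4 group values show where each difference lies. Slc18a3 had 2.03 FPKM in cKO runners, 0.0697 in control runners, 1.14 in cKO sedentary mice and 0.361 in control sedentary mice. Chat had 2.58 FPKM in cKO runners, 0.192 in control runners, 2.28 in cKO sedentary mice and 0.509 in control sedentary mice, and Slc5a7 3.89 FPKM in cKO runners, 0.332 in control runners, 2.75 in cKO sedentary mice and 0.777 in control sedentary mice. In these 3 genes the control runner value was below the control sedentary value and the cKO runner value above the cKO sedentary value. The control groups also differed in sex-linked transcripts, so running and sex of the pooled mice cannot be told apart here. Dbh had 11.2 FPKM in cKO runners, 0.355 in control runners, 7.16 in cKO sedentary mice and 0.991 in control sedentary mice, Calca 5.103 FPKM in cKO runners, 0.485 in control runners, 3.95 in cKO sedentary mice and 1.26 in control sedentary mice, and Gabre 1.38 FPKM in cKO runners, 0.1697 in control runners, 1.02 in cKO sedentary mice and 0.421 in control sedentary mice. Car4 had 23.4 FPKM in cKO runners, 68.4 in control runners, 13.5 in cKO sedentary mice and 85.3 in control sedentary mice. Calca no longer passed when centred on the median, with 1.67, or on length, with 1.45, Gabre when centred on the median, with 1.68, and Chat when centred on length, with 1.42. With the SE from the deposited p, Slc18a3, Chat, Slc5a7, Slc6a4, Tph2, Dbh, Calca, Gabre, Neurod1, Calb2 and Car4 did not pass, and the other 7 did.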

How the results depend on the processing

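No paired analysis was possible because the deposited tables hold 1 value per group, and for the same reason no replicate could be left out. With an FPKM of at least 5, 2130 loci were called higher, and 184 were at least 2-fold higher and 161 at least 2-fold lower. On the log2(FPKM + 1) scale, 190 were 2-fold higher and 147 lower, and centring on the median left 168 that were 2-fold lower. At a 1.5-fold threshold 1507 loci were higher and 888 lower. With the SE from the deposited p, 189 differences were larger in runners and 374 lower; the smallest deposited p caps the statistic in that setting. The other 28 recomputed counts over all loci stayed within 1.5 times the main count. Among recomputed gene ratios 733 kept their direction and call, and Adra1d, Cd59a and Cxcl10 lost it at a q threshold of 0.01. Among recomputed differences 93 kept direction and call, 18 lost the call, Smarca5 gained it when centred on length, and the Klk6 difference turned to -0.014 there. Among recomputed list counts 470 stayed within 1.5 times, and 76 moved further, many of them from small counts. The cause of these changes was not tested. Read depth is unknown, so no floor can be set for loci at low FPKM.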
